A study of Mus musculus with 34 samples.

Results

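Ribosome footprints of the unstimulated mouse hippocampus were compared with those of mouse embryonic stem cells (ESC), gene by gene. The comparison used 4 of the 34 libraries of the series: the 3 footprint libraries of control hippocampus and the single footprint library of ESC. It covered the 9456 genes that both deposited tables list under the same RefSeq identifier, out of 11531 genes in the tissue table and 11029 in the ESC table. Control hippocampus came from C57BL/6N mice labelled as having received no stimulus, in a study whose mice were caged singly and handled daily. ESC were of the line A3-1, grown with serum and the cytokine LIF, and had received a siRNA against luciferase, a control target that mouse cells lack, for 48 h. In both, lysis took place in cycloheximide, which holds ribosomes on the mRNA, and ribosomes were separated by gel filtration before the protected RNA was made into small RNA libraries. The other libraries are RNA from the same groups, hippocampus at 4 times from 5 min to 4 h after fear conditioning, and a hippocampal primary culture with 1 footprint library.

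A footprint is the stretch of mRNA that a translating ribosome protects from nuclease, so the footprints on a gene report how many ribosomes were making its protein. ESC divide rapidly, with a short interval between one S phase and the next, and depend on a network of transcription factors around Pou5f1, Nanog and Sox2. The hippocampus is built of neurons that no longer divide, together with astrocytes, oligodendrocytes, microglia, vessels and the adjoining choroid plexus. Neurons spend much of their protein synthesis on membrane proteins of synapses, ion pumps and secretory vesicles. In bulk tissue, fewer cells of a type and less RNA per cell cannot be told apart.

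The deposited value, called signal here, is a whole number of reads divided by 1 number per library. The control libraries held 24750901, 20271125 and 19245717 reads on listed genes, and ESC held 65147288. The median shared gene held 739, 652 and 594 reads in the control libraries and 1802.5 in ESC. Signals were placed on the scale log2(signal + 1), and each library was centred on its median over the shared genes, since the tissue and ESC tables were made separately. On this scale the control libraries correlated with each other at r = 0.988 to 0.993 across genes and with ESC at r = 0.372 to 0.389, values that describe genes and not replicates. The difference between hippocampus and ESC is given as the mean over the 3 control libraries, with the standard deviation (SD) between them, which was 0.08 for the median gene. With a single ESC library there is no replicate spread for ESC and no test: an exact permutation test of 3 libraries against 1 cannot go below 0.25 one-sided. A gene was called where each of the 3 control libraries differed from ESC by at least 2 on the log2 scale, a 4-fold difference.

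By that rule 759 shared genes were higher in hippocampal footprints (8.03% of those compared), 919 were higher in ESC (9.72%), and 7778 were not called. A total of 4601 genes (48.7%) lay within 2-fold of ESC in each control library. The difference is relative to the median shared gene, and the split of calls follows that choice. Without centring the median gene moved to -0.33 and the calls were 553 and 1259. With libraries scaled to their totals it moved to 0.18 and the calls were 894 and 598. With a trimmed mean of M values, a scaling that leaves out the genes that differ most, they were 747 and 798. In the library nearest to the threshold, Scn3a (higher in hippocampus, by 2.0008) and Sall1 (higher in ESC, by 2.0006) lay just inside it, and Rims1 (1.9995) and Psmc4 (1.9998) just outside. The scale understates the fold of genes with low signals.

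**Figure D1:**
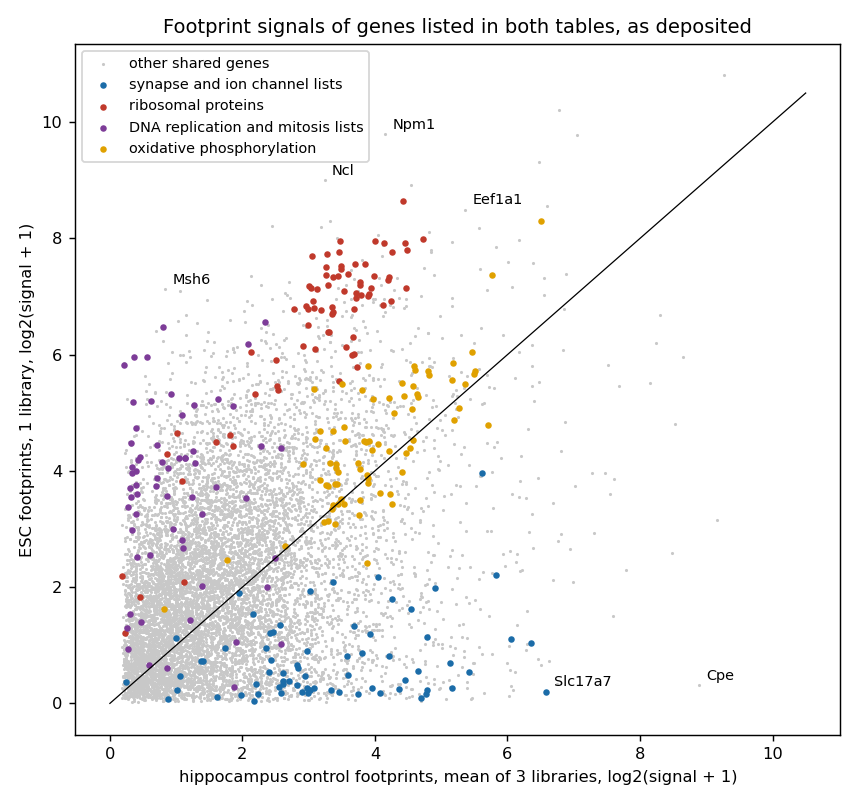
Each point is a gene listed in both tables. The x axis gives log2(signal + 1) of the mean signal over 3 hippocampus control footprint libraries. The y axis gives log2(signal + 1) of the ESC footprint library, with signals as deposited on both axes. The line marks equal signals. Most genes of synapses and ion channels (blue) lie below the line, the ribosomal protein genes (red) and most genes of DNA replication and mitosis (purple) above it, and genes of oxidative phosphorylation (yellow) nearer to it.

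Some genes had no fold, because they were listed in 1 table only. The 2075 genes of the tissue table alone took 22.9, 21.8 and 20.3% of the footprints of the control libraries. They include Slc1a2, the main glutamate transporter of astrocytes (signals of 305, 216 and 269), and Syp, the synaptic vesicle protein synaptophysin (185, 167 and 192). Camk2a, the kinase of long-term potentiation (190, 172 and 163), and Snap25, a SNARE of vesicle fusion (164, 174 and 187), were also among them. These are abundant brain mRNAs, and each was seen at like signals in the 3 control libraries. The 1573 genes of the ESC table alone took 6.45% of ESC footprints. Among them were Top2a, the topoisomerase of dividing cells (173), Tdgf1, a Nodal co-receptor (131), the replicative helicase subunit Mcm3 (111), Dppa5a (101), L1td1 (100.5), Zfp42 (91.9), Nanog (77.3) and Pou5f1 (47.9). Footprint reads below the listing limit of the other table are not given for these genes, so no ratio was formed.

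The defining markers of each label were present. All 14 pluripotent cell markers were listed in ESC, with a summed signal of 752, and only Sox2 of the 14 was listed in the tissue, at 2.93 to 3.43. All 10 neuron markers were listed in the tissue, with summed signals of 688 to 747, and 5 were listed in ESC with a sum of 14.6, of which the tubulin gene Tubb3 made up 9.93. The astrocyte list summed to 372 to 512 in hippocampus and 31.4 in ESC, and the oligodendrocyte list to 293 to 397 and 3.78. Of the 8 fibroblast markers, which would mark feeder cells, only Thy1, which neurons also express, was listed in ESC, at 1.56, and the collagens Col1a1, Col1a2 and Col3a1 were listed in the tissue only. Of 7 primitive endoderm markers, Sparc (42.0) and Lama1 (25.7) were listed in ESC, while Gata4, Gata6 and Sox17 were in neither table.

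**Figure D2:**
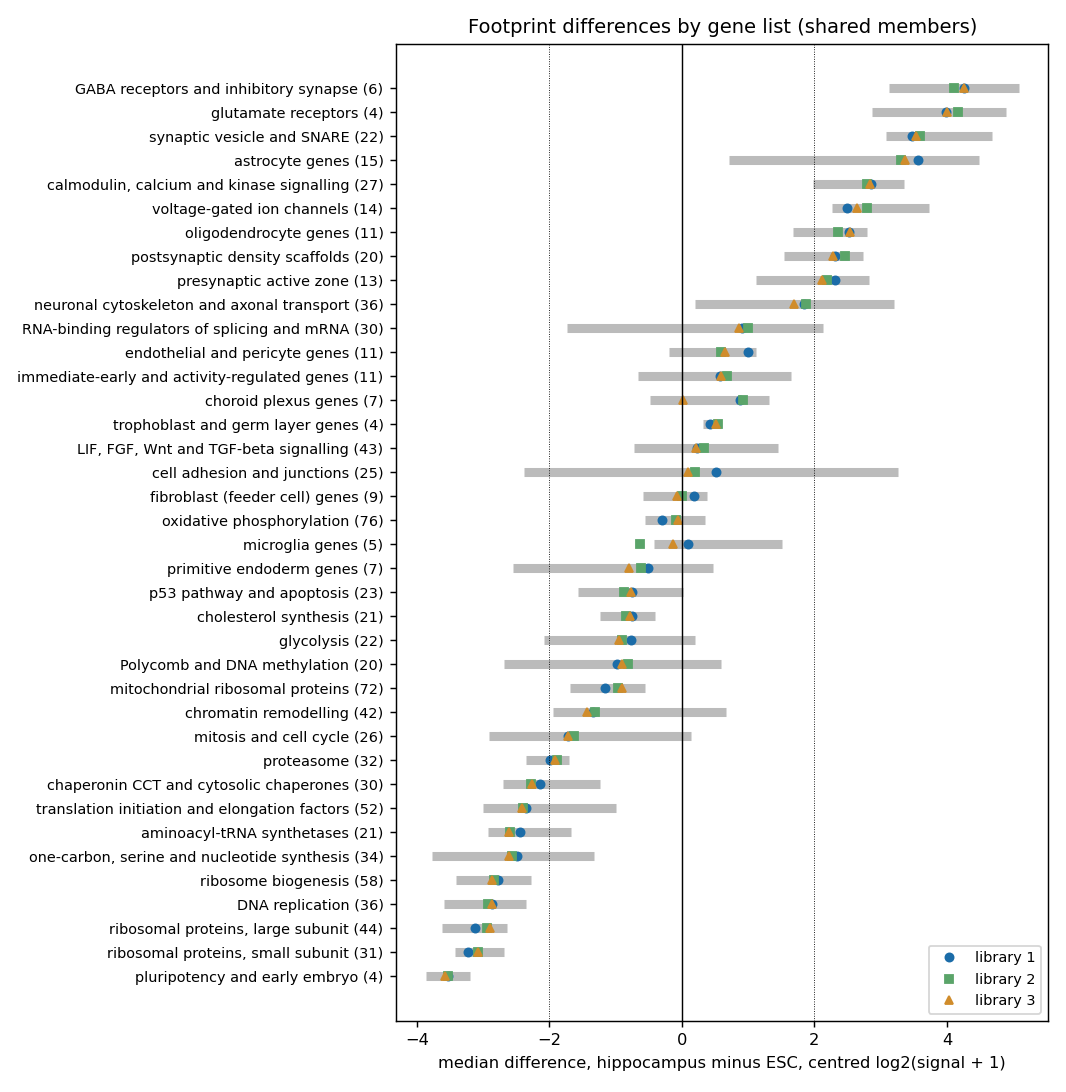
Each row is a gene list, with the number of shared members in brackets, and the x axis gives the median difference between hippocampus and ESC in centred log2(signal + 1). Markers show the median in each of the 3 control libraries, grey bars the interquartile range of the members' means over the libraries, and dotted lines the 4-fold difference. The lists run from pluripotency genes at -3.54 to genes of inhibitory synapses at 4.22, and the 3 libraries lie close together for most lists.

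Among the shared genes higher in hippocampus, the largest difference was that of Cpe, carboxypeptidase E, which trims neuropeptide precursors in secretory granules. Its signal was 525, 401 and 488 in the control libraries and 0.245 in ESC, a difference of 8.90 ± 0.19 (SD, n = 3). The amyloid precursor App had signals of 436, 293 and 345 against 4.99, or 6.22 ± 0.28. In both genes the control library that was lowest was the second, and the groups lay far apart. The 12 genes with the largest differences also included, at 6.03 to 6.74, Nell2, Slc17a7, Tspan7, Spock2, Ntrk2, Olfm1, Nrcam, Scg3 and Nptxr. They include genes for secreted proteins, a vesicular transporter, a neurotrophin receptor (Ntrk2, or TrkB) and an adhesion molecule (Nrcam). All 12 were also called in RNA.

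The machinery of transmitter release was among the strongest groups of the hippocampus. Of 22 shared genes for synaptic vesicles and SNARE proteins, 19 were higher in hippocampus, 0 were higher in ESC and the median difference was 3.53, where the median of all shared genes was 0.01. Another 20 members of that list were in the tissue table only. Slc17a7, which loads glutamate into vesicles (VGLUT1), had signals of 96.8, 94.8 and 94.2 against 0.150, a difference of 6.72 ± 0.01. Dnm1, the dynamin that pinches off vesicles, had 86.8, 80.5 and 75.7 against 1.05 (5.66), and Syt11, an atypical synaptotagmin, 69.1, 59.3 and 68.9 against 1.17 (5.28). Doc2a, a calcium sensor of spontaneous release, had the smallest difference of the list, 0.92, and was not called. At the active zone, where vesicles dock, 7 of 13 shared genes were higher in hippocampus and the median was 2.20. The scaffold Bsn (23.3, 18.5 and 16.8 against 0.184) and the adhesion receptor Nrxn2 (24.8, 25.4 and 21.9 against 0.471) led it, while Unc13b, a priming factor, differed by only 0.22.

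On the receiving side, 12 of 20 shared genes of the postsynaptic density were higher in hippocampus, with a median of 2.41. Camk2b, the beta subunit of the calcium-calmodulin kinase, had signals of 55.7, 58.4 and 52.4 against 3.62. Cnksr2, a scaffold of the density, had 20.1, 13.6 and 13.7 against 0.135. Dlg1 (SAP97) was low in both samples, at 0.167 to 0.204 and 0.295. Only 4 of 25 glutamate receptor genes were shared, because 17 were in the tissue table only. The obligatory NMDA receptor subunit Grin1 stood at 76.8, 50.6 and 61.4 against 0.622, a difference of 5.62 ± 0.29, and the AMPA receptor auxiliary subunit Cacng8 at 22.3, 23.8 and 21.4 against 0.188. For inhibitory synapses 5 of 6 shared genes were higher, led by the GABA-B receptor Gabbr1 (67.7, 59.4 and 66.4 against 0.495). No member of these synaptic lists was called higher in ESC.

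Of the voltage-gated channels, 12 of 14 shared members were higher in hippocampus, with a median of 2.62, and 29 more were in the tissue table only. Cacna2d1, an auxiliary calcium channel subunit, had signals of 42.5, 28.0 and 34.0 against 0.201, and the sodium channel Scn8a differed by 4.92. Cacna1a, the pore of the P/Q-type calcium channel, fell short of the call at 1.60, since ESC held a signal of 3.25. Calcium and kinase signalling followed the same pattern, with 19 of 27 shared genes higher in hippocampus and a median of 2.82. Its leading members were the plasma membrane calcium pump Atp2b2 (58.3, 42.9 and 46.4 against 0.134), the calcineurin catalytic subunit Ppp3ca (79.5, 74.1 and 75.2 against 0.889) and Camkv (39.7, 39.5 and 39.4 against 0.729). For the cytoskeleton of neurons the separation was less complete: 15 of 36 genes were higher in hippocampus, 0 were higher in ESC and the median was 1.83. Map2, which bundles dendritic microtubules, differed by 4.67 and Map1a by 4.61, while Map4, the microtubule-associated protein of non-neural cells, stood at 26.1, 27.8 and 30.7 against 33.3.

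Glial genes added to the difference. Of 15 shared astrocyte genes 8 were higher in hippocampus, with a median of 3.41. Cpe, which neurons also express, is in that list and led it. Mt3, the brain metallothionein, had signals of 62.1, 70.6 and 73.1 against 0.460, and the secreted chaperone Clu 268, 183 and 206 against 3.89. Glul, glutamine synthetase, is a classical astrocyte enzyme, yet its footprints were 78.6, 66.8 and 68.4 against 65.0 in ESC and it was not called. Gja1, the astrocyte gap junction protein, was likewise close, at 35.0, 22.6 and 31.3 against 25.6. Of 11 shared oligodendrocyte genes 7 were higher, led by transferrin, Trf (93.0, 63.3 and 81.1 against 6.76), the galactolipid enzyme Ugt8a (2.91) and the myelin gene Mobp (2.82). Of 19 microglia genes listed in the tissue, 14 were absent from the ESC table, and none of the 5 shared ones was called. The median of those 5 genes, -0.23, turned positive when libraries were scaled to their totals. Pecam1, an adhesion molecule of endothelium that ESC also carry, was the only endothelial gene called, and it was higher in ESC (0.772, 0.623 and 0.603 against 21.9).

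The third control library stood apart in choroid plexus genes, the epithelium that secretes cerebrospinal fluid. Ttr, the thyroxine carrier transthyretin, which is listed in the tissue only, took 2.31 and 2.55% of footprints in the first 2 control libraries and 0.170% in the third. The whole list of 18 genes in the tissue table took 3.23, 3.198 and 0.29995%, against 0.102% for its 8 members in ESC. Folr1 shows what this does to a fold: its signals of 9.46, 7.57 and 0.705 lie on both sides of the 8.01 of ESC. Igfbp2, which is no private marker of this epithelium, was the only member called, higher in ESC at 16.1, 15.2 and 4.10 against 87.1. Without the third library the calls over all genes were 773 and 931, and its part in single genes outside this list was not tested.

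In ESC the largest difference in the shared table was that of Msh6, a mismatch repair protein, with 0.965, 0.695 and 0.682 in the control libraries and 139 in ESC (-5.96 ± 0.12). It was followed by Nasp, a histone chaperone (1.12, 1.08 and 1.08 against 135), and Fn1, fibronectin (6.51, 3.21 and 3.71 against 296). The others among the 12 largest were Ncl, Hmgb2, Mcm6, Slc38a4, Npm1, Mcm7, Mcm2, Hist1h1a and Trp53, at -5.45 to -5.19. Apart from Msh6, Fn1, the amino acid transporter Slc38a4 and Trp53, these encode proteins of DNA replication, chromatin or the nucleolus. Of 40 pluripotency and early embryo genes, 35 were in the ESC table only and all 4 shared ones were higher in ESC. They include Spp1 (1.57 to 2.45 against 61.7), Lefty1 (0.154 to 0.201 against 19.5) and Sox2 (2.93 to 3.43 against 37.7), which neural progenitors and astrocytes also express.

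DNA replication lay on the side of ESC. Of 36 shared genes 28 were higher in ESC, 0 were higher in hippocampus and the median was -2.87, and 19 more genes of the list were in the ESC table only. The replicative helicase, a ring of 6 MCM proteins that unwinds DNA ahead of the fork, held the top places. Mcm6 had signals of 0.796, 0.763 and 0.656 against 87.7, Mcm7 0.351, 0.249 and 0.243 against 61.5, and Mcm2 0.247, 0.132 and 0.108 against 55.3. The whole list took 0.0508, 0.0530 and 0.0505% of footprints in the control libraries and 1.496% in ESC. The ESC value includes the 19 genes without a tissue value. On shared genes alone the shares were 0.0660, 0.0678 and 0.0633% against 0.928%. Pole3, a histone-fold protein that also serves outside replication, had a difference of 0.11, the smallest of the list. For mitosis and the cell cycle 10 of 26 shared genes were higher in ESC and 39 more were in the ESC table only. The condensin subunits Smc2 (-4.24), Smc4 (-3.99) and Ncapd2 (-3.54) led them, and E2f1, a regulator of S phase entry, differed least, at 0.473 to 0.542 against 0.574.

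Genes of replication are textbook targets of the E2F transcription factors, so the RefSeq promoters of the mouse assembly GRCm38.p6, from 250 bases before to 50 after each start, were searched for E2F letters. Of 55 listed genes of replication 45 had a promoter there, and 14 of them (31.1%) held TTTGGCGC or TTTCCCGC on either strand. The share was 3.41% of the 7702 shared genes with a promoter, 5.74% of genes higher in ESC and 1.798% of all 27025 genes with a promoter. It was 16% for Polycomb and DNA methylation genes, 11.6% for RNA-binding regulators and 10.3% for the proteasome. The letters are thus not confined to replication. These 60-base stretches are shown because their genes were called higher in ESC or were listed in ESC only. Capitals mark the E2F letters, which on the printed strand may read as the reverse complement.
Mcm6: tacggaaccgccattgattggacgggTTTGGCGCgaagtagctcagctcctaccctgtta
Mcm7: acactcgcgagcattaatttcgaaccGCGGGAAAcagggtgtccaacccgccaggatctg
Mcm5: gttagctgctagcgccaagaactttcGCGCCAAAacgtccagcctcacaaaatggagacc
Cdc6: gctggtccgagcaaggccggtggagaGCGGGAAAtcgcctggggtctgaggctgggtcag
Pola1: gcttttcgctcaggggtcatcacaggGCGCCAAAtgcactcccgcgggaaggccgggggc
They lie at chr1:128359719-128359778 (minus strand, Mcm6), chr5:138172015-138172074 (minus, Mcm7), chr8:75109334-75109393 (plus, Mcm5), chr11:98907987-98908046 (plus, Cdc6) and chrX:93632260-93632319 (minus, Pola1). The letters begin 47 bases before the start in Mcm6 and 138 to 165 bases before it in the others. A match describes the sequence and is no evidence that a factor was bound. Of 11 patterns searched in the same promoters, named with the processing, the E2F letters were the one shown here for replication, chosen after the counts were seen.

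Ribosomal proteins lay on the side of ESC as well. Of 44 shared genes of the large subunit 39 were higher in ESC and of 31 of the small subunit 28, with medians of -2.99 and -3.14. Genes of both subunits together took 1.02, 1.23 and 1.27% of footprints in the control libraries and 9.25% in ESC, 7.89 times the mean of the control libraries. As a share of footprints on shared genes alone the ESC value was 9.89% (95% exact binomial interval 9.88 to 9.89, which covers counting error only). Rpl5, which carries 5S rRNA into the ribosome, had signals of 7.87, 6.88 and 7.14 against 205. Rpl19 had 18.1, 21.1 and 22.0 against 397, and Rps27a, which is made as a fusion with ubiquitin, 9.65, 9.69 and 10.9 against 246. None of the 75 shared ribosomal protein genes was higher in hippocampus, and the lowest differences, those of Rpl29 (-0.65) and Rps15a (-0.64), came with signals in ESC of 3.28 and 1.31. Ribosomal protein genes have near-identical pseudogenes, and no source used here says how reads matching several copies were counted, so single members are uncertain.

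Messages for ribosomal proteins and many translation factors start with a run of pyrimidines, the terminal oligopyrimidine motif through which mTOR controls their translation. The start regions below, from 10 bases before to 20 after the RefSeq start, hold a pyrimidine run in members that were higher in ESC. A run in this window need not be the first bases of the message. Whether these runs are terminal motifs was not tested. Capitals mark the longest run of C and T within the window searched, from 10 bases before to 12 after the start, which can cut a run short, as in Rpl15.
Rpl7a: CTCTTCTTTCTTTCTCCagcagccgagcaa
Rpl14: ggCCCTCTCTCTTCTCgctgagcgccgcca
Rpl15: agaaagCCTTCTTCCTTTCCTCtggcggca
Rpl35: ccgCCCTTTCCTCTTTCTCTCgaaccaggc
Rps18: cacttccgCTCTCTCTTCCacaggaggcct
Eef1a1: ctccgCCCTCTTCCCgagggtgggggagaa
Their positions are chr2:26910797-26910826 (plus, Rpl7a), chr9:120571507-120571536 (plus, Rpl14), chr14:18270967-18270996 (minus, Rpl15), chr2:39005112-39005141 (minus, Rpl35), chr17:33955646-33955675 (minus, Rps18) and chr9:78481705-78481734 (minus, Eef1a1). The runs printed are 17, 14, 16, 18, 11 and 10 bases long. The footprint differences of these genes were -3.45, -3.77, -3.03, -2.78, -3.91 and -2.79 in the same order. A promoter was at hand for 35 of 47 large subunit genes and 23 of 31 small subunit genes, under 80%, so a share of genes with such a run would be void and none is given.

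The rest of the translation machinery lay on the same side. Of 58 shared ribosome biogenesis genes 47 were higher in ESC, with a median of -2.81. The nucleolar proteins Npm1 (16.2, 15.9 and 18.5 against 884) and Ncl (11.04, 7.07 and 7.31 against 512) led them, with Mybbp1a, a regulator of rRNA transcription, at -4.90. Rrp1, another nucleolar protein, was near equal at 13.6, 12.9 and 12.4 against 14.1. In the promoters of ribosome biogenesis genes the ETS letters CCGGAAGT occurred in 13 of 55 (23.6%), against 10.3% of shared genes and 12.6% of genes higher in ESC, a pattern named after the counts were seen. Like shares were found for the proteasome (20.7%), DNA replication (9 of 45) and mitochondrial ribosomal proteins (18.8%), so it is not particular to this list. Of 52 initiation and elongation factors 30 were higher in ESC, led by Eef1g (5.598, 5.26 and 5.71 against 151), the initiation factor 3 subunit Eif3l (-4.20) and the helicase Eif4a1 (-4.03). The exception was Eif1b, a relative of the start codon selection factor, which was higher in hippocampus at 12.5, 15.4 and 16.1 against 1.41. Of 21 cytosolic aminoacyl-tRNA synthetases 12 were higher in ESC and 0 in hippocampus, from Eprs at -3.65 to Gars at -0.47. Mitochondrial ribosomal proteins differed less: 7 of 72 were higher in ESC, a share of 9.72% that equals the background, with a median of -0.99.

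Protein folding and turnover followed translation. Of 30 shared chaperone genes 16 were higher in ESC, and the list took 1.25, 1.03 and 1.09% of footprints in the control libraries and 5.16% in ESC. The mitochondrial chaperonin Hspd1 had signals of 11.1, 8.75 and 9.37 against 256, the cytosolic chaperonin subunit Cct4 8.87, 8.34 and 8.93 against 142 and Hspa4, an HSP70 exchange factor, 15.6, 11.7 and 11.5 against 197. Its paralogue Hspa4l was the one chaperone higher in hippocampus, at 11.6, 9.35 and 10.6 against 0.953. Of 32 proteasome genes 13 were higher in ESC and 31 had a negative difference. Psmb3, a beta subunit of the core, differed by -2.84, and the immunoproteasome subunit Psmb10 stood at 1.53, 1.86 and 1.77 against 2.23.

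**Figure D3:**
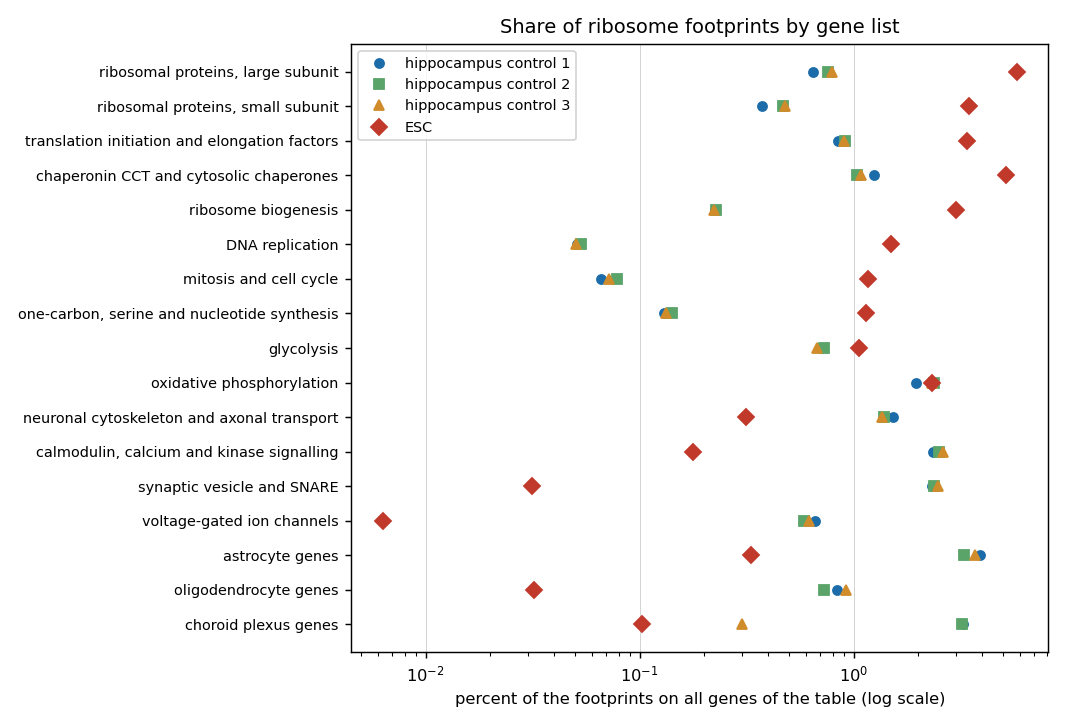
The x axis gives, on a log scale, the percent of all footprints on listed genes that each gene list took in each of the 3 hippocampus control libraries and in ESC. A member absent from a table adds nothing to the share there. Ribosomal proteins, chaperones and replication genes took more of the footprints in ESC, synaptic and glial genes took more in hippocampus, and oxidative phosphorylation took 1.96 to 2.37% in hippocampus and 2.33% in ESC.

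Metabolic genes divided by pathway. Oxidative phosphorylation, which makes ATP in mitochondria, was the large list with the least difference: 0 of 76 shared genes were called in either direction, and the members ranged from -1.99 (Ndufs1) to 1.79 (Ndufb2). Its median of -0.16 turned positive under total scaling and under the trimmed mean. The list took 1.96, 2.37 and 2.32% of footprints in the control libraries and 2.33% in ESC. Synthesis of nucleotides, serine and one-carbon units, which growing cells need, was higher in ESC for 21 of 34 genes and higher in hippocampus for 0. The nucleoside diphosphate kinase Nme2 had the largest difference, -4.55. Gart, of purine synthesis, had 1.91, 1.75 and 1.65 against 74.3, and Cad, of pyrimidine synthesis, 1.01, 0.868 and 0.744 against 46.9. Of 22 glycolysis genes 2 were higher in hippocampus, near the share of 8.03% over all shared genes. Another 6 were higher in ESC, where the share over all shared genes was 9.72%. Eno2, the neuronal enolase, had 44.3, 43.0 and 41.4 against 0.0517 and the brain aldolase Aldoc differed by 3.71, while the hexokinase Hk2 had 0.231, 0.231 and 0.216 against 21.5 and the lactate exporter Slc16a3 differed by -3.86. The glucose transporter Slc2a3, named as the neuronal form, was itself higher in ESC, at 18.7, 13.9 and 16.6 against 236. Cholesterol synthesis differed little, with 2 of 21 genes higher in ESC, near the share of 9.72% over all shared genes. Among them was Fdps (-2.23), an enzyme of isoprenoid synthesis.

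Regulators of chromatin and RNA also held calls on both sides. Of 20 shared Polycomb and DNA methylation genes 7 were higher in ESC, among them Jarid2 (0.611, 0.754 and 0.449 against 39.5), the Polycomb subunit Eed (-4.06) and the maintenance methyltransferase Dnmt1 (-3.53), and 1, the Polycomb reader Cbx6, was higher in hippocampus (2.23). Of 42 chromatin remodelling genes 10 were higher in ESC and 4 in hippocampus. In neither of these lists did the calls higher in hippocampus stand out from the 8.03% of all shared genes. The NuRD helicases traded places, with Chd4 at 6.66, 4.88 and 4.45 against 77.5, Chd3 at 9.84, 8.94 and 8.50 against 1.65 and Chd5 at 5.47, 4.46 and 4.04 against 0.277. The deacetylase Hdac1 differed by -3.69 and Hdac11 by 2.95. Of 30 RNA-binding regulators 8 were higher in hippocampus, led by Celf2 (18.8, 19.6 and 19.9 against 0.266) and Celf4 (3.97), and 7 in ESC, led by the splicing repressor Ptbp1 (1.44, 1.27 and 0.944 against 80.0).

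Signalling and adhesion genes were divided as well. In the list of LIF, FGF, Wnt and TGF-beta signalling 6 of 43 genes were higher in hippocampus, including the receptors Fgfr3 (3.41) and Bmpr2 (2.91), and 4 were higher in ESC, including Lefty1 and the Wnt receptor Fzd7 (-2.70). The share higher in ESC is near the 9.72% of all shared genes. The share higher in hippocampus lies above the 8.03% of all shared genes, a difference that was not tested. The median of 0.28 turned negative without centring. Of 25 adhesion genes 9 were called in each direction. The neuronal immunoglobulin molecules Nrcam (82.3, 50.4 and 67.4 against 0.178) and L1cam (37.3, 21.7 and 27.1 against 0.339) were higher in hippocampus, and the epithelial junction gene Ctnna1, the alpha-catenin (3.39, 2.84 and 2.08 against 69.2), was higher in ESC. Of 7 shared primitive endoderm genes 2, the basement membrane chains Lamc1 (-4.06) and Lama1 (-3.60), were higher in ESC. Trp53, the p53 gene, stood at 1.19, 1.42 and 1.05 against 101. In all, 2 of 23 genes of its pathway and of apoptosis were called, Mcl1 being the other. Both were higher in ESC, a share near the 9.72% of all shared genes. Of 11 shared activity-regulated genes, Jun (2.89) and Homer1 (2.82) were higher in hippocampus and Ier2 (-2.63) and Sik1 (-2.44) were higher in ESC.

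Many proteins come as a brain form and a general form encoded by different genes, and 45 such pairs were compared. The switch of a pair is the difference of the brain member minus that of the general member, which does not depend on the scaling of the libraries beyond the pseudocount. Both genes were shared in 24 pairs. In 22 of them the switch was above 0 in each control library, in 21 it was at least 2, and the median was 3.76. The pairs were chosen, and their brain members named, with earlier results of these data known. These counts therefore describe the chosen pairs only. The brain member alone was called in 10 of the 24 pairs, the general member alone in 6, neither in 6, both in the same direction in 2 and both in opposite directions in 0. In 16 of the 24 pairs a single member was called.

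**Figure D4:**
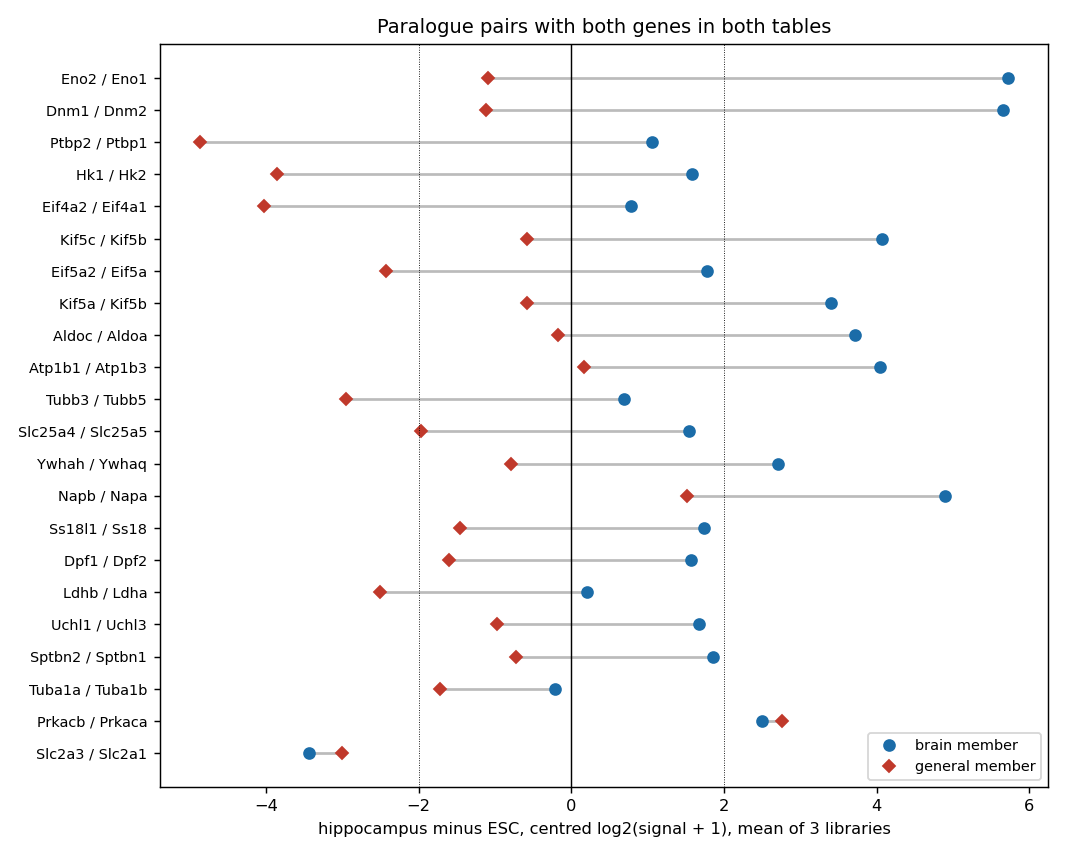
Each row is a pair of paralogues, with the brain member (blue circle) and the general member (red diamond) placed by their difference between hippocampus and ESC in centred log2(signal + 1), the mean of 3 control libraries. Dotted lines mark the 4-fold difference. The brain member lies to the right in 20 of the 22 pairs drawn, and the exceptions are Prkacb with Prkaca and Slc2a3 with Slc2a1.

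The largest switch was that of enolase, 6.81, where Eno2 was called and Eno1 (-1.09) was not. Dynamin followed at 6.78, where Dnm1 was called and Dnm2 (2.53, 2.33 and 2.04 against 8.03) was not. In other pairs the general member carried the switch. The splicing repressor Ptbp1 was higher in ESC while its neural form Ptbp2 was not called (6.91, 5.95 and 6.17 against 3.46), a switch of 5.91. The initiation helicase Eif4a1 stood at 23.2, 21.5 and 22.5 against 482 and Eif4a2 at 32.6, 30.6 and 33.3 against 23.5, a switch of 4.81. Hexokinase (Hk1 and Hk2, 5.44) and lactate dehydrogenase (Ldhb and Ldha, 2.72) were of the same kind.

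Of the remaining 21 pairs, 15 had a brain member in the tissue table only, 4 had a general member in the ESC table only and 2 lacked a gene otherwise. Elongation factor 1 alpha is of the first kind: Eef1a2 was listed in the tissue alone, at 89.7, 88.1 and 89.6, and Eef1a1 stood at 39.0, 38.9 and 42.7 against 359. The same held for the BAF complex subunit, with Actl6b in the tissue alone (4.02, 4.72 and 4.51) and Actl6a at 0.563, 0.497 and 0.357 against 36.9. Cadherins are of the second kind, with Cdh2 at 31.4, 20.8 and 25.8 against 3.10 and Cdh1 in the ESC table alone, at 45.7. Both exceptions were pairs that moved together. The protein kinase A subunits Prkacb and Prkaca were both higher in hippocampus (2.50 and 2.76), and the glucose transporters Slc2a3 and Slc2a1 were both higher in ESC (-3.44 and -3.01).

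RNA from the same groups, 3 control libraries and 1 of ESC, was set against the footprints with the same rule. In RNA a single gene, Gm20594, took 12.04 to 14.1% of reads in the control libraries and 1.83% in ESC, which the median centring does not follow. In RNA 747 genes were higher in hippocampus (7.9%) and 804 in ESC (8.5%). Of the footprint calls, 558 of 759 and 634 of 919 were also called in RNA in the same direction and 0 in the opposite one. Across the 9456 genes the footprint and RNA differences correlated at r = 0.920 (Spearman's rho 0.911), a description across genes, which are not independent. The difference of footprints minus that of RNA, a change in translational efficiency, had a median of 0.05 over all genes. Gene lists departed from it to both sides. For genes of oxidative phosphorylation the median was 0.59 and 69 of 76 members were positive: their RNA difference was -0.63 and their footprint difference -0.16. Proteasome genes stood at 0.32, with 22 of 32 positive, and synaptic vesicle genes at 0.64, with 20 of 22. Ribosomal proteins stood at -0.47 (large subunit, 35 of 44 negative) and -0.69 (small subunit, 25 of 31 negative). All genes called higher in ESC had a median of -0.39 and those called higher in hippocampus 0.39, values that the footprint call itself shifts. The lists' values were not tested and are not read as a trait of a list.

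**Figure D5:**
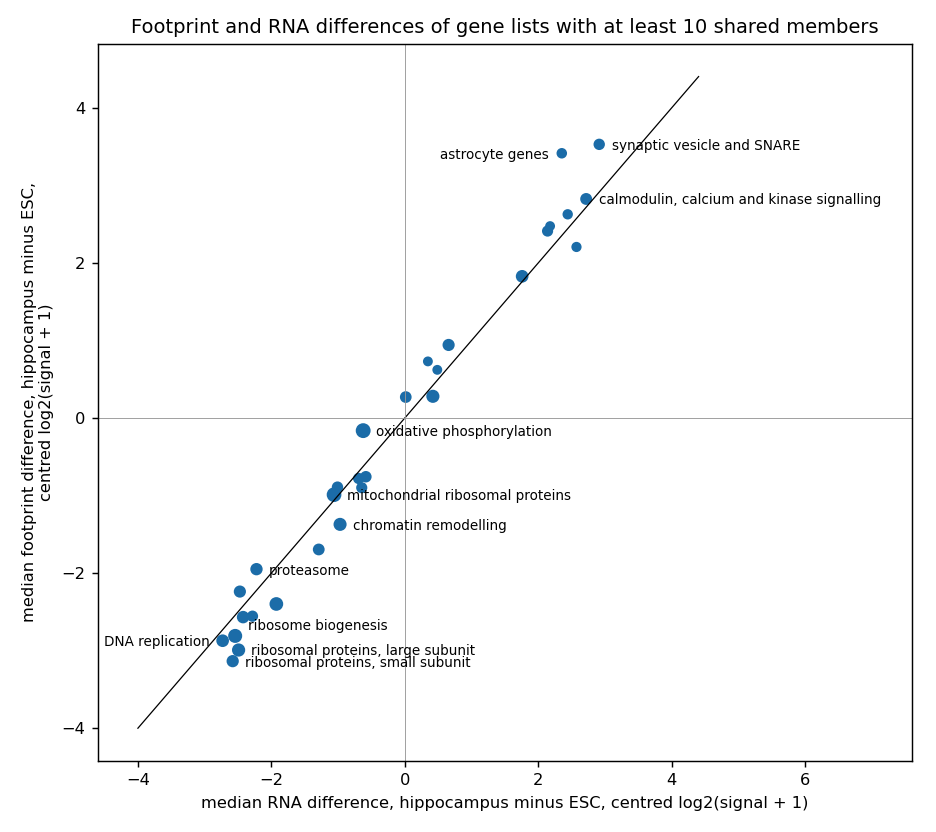
Each point is a gene list with at least 10 shared members, larger for longer lists, with the median RNA difference on the x axis and the median footprint difference on the y axis, both hippocampus minus ESC in centred log2(signal + 1). The line marks equal differences. Ribosomal proteins lie below the line at -2.58 in RNA and -3.14 in footprints (small subunit), and oxidative phosphorylation lies above it.

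Single genes parted further. Among the 770 genes with a mean signal of at least 5 in all 4 groups, the SD of this difference was 0.65. Scd2, a fatty acid desaturase, had the most negative value, -2.91 ± 0.12 (SD, n = 3): its RNA was 94.8 on average in hippocampus and 8.90 in ESC, while its footprints were 89.7, 71.9 and 84.5 against 71.1. Ddx6, an RNA helicase of P-bodies, followed at -2.14, and the ribosomal protein genes Rpl36al and Rpl10 stood at -1.92 and -1.72 and Rps24 between these and Ddx6. On the other side, Calm3, 1 of the genes for calmodulin, had 1.94 ± 0.07, with footprints of 101, 117 and 117 against 6.52 and an RNA difference of 2.30. Anapc5 (1.65) and Ube2s (1.59), both of the anaphase-promoting system, Tspan3 (1.35) and Tma7 (1.35) came next. Outside that filter Trp53 had -2.52, with an RNA difference of -2.67 beside a footprint difference of -5.19. Its RNA signal was 0.275 on average in hippocampus and 8.17 in ESC. At so low a signal the pseudocount shrinks the RNA difference and makes the value of -2.52 larger in size.

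Over all 15 hippocampal footprint libraries, conditioned mice included, 728 of the 759 calls and 872 of the 919 calls held in every library. Cpe ranged from 401 to 584 over the 15 libraries, Npm1 from 13.9 to 19.2 and Mcm6 from 0.465 to 1.00. Jun and Nr4a1, which neuronal activity induces, ranged from 6.88 to 8.199 and from 1.24 to 3.25, against 0.465 and 2.25 in ESC. The hippocampal primary culture, with 1 library, gives further values side by side: 552 for Cpe, 70.1 for Slc17a7, 12.9 for Npm1, 0.883 for Mcm6 and 27.1 for Rpl19. Each lay nearer to the tissue than to ESC, while the oligodendrocyte and choroid plexus markers summed to 1.53 and 1.67 in culture.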

How the data were processed

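The submitters' processing notes name CASAVA 1.8.2, Bowtie 1.1.1 and the build mm9. The deposited signal, which the ESC header names a normalised count, has an unstated definition: values are whole reads divided by 1 number per library (100% within 0.001). The same number divides every gene of a library, so signals were not divided by gene length, and a longer gene can hold more reads. Signals of different genes are therefore not amounts per molecule, and summed marker signals are sums of reads on this scale. The other signals used, of RNA and culture, were deposited likewise.

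Tables were joined by RefSeq identifier and handled in Python 3.11.15 with numpy 2.4.6 and pandas 2.3.3. The value log2(signal + 1) was centred on the library's median over 9456 shared genes, and a call needed a difference of 2 in each control library. No statistical test was run, since ESC has 1 library. The calling rule was run on simulated libraries in which few genes changed, equally many in each direction. That setting cannot test the centring where many genes differ, as they do here. The members, the 38 gene lists and the pairs were chosen with earlier results of these data known. Named genes were the 12 largest calls per direction with a signal of at least 10, up to 3 calls per direction and the least different member of each list, the pairs, cell type markers, genes with the highest signal in 1 table only, and the 5 largest footprint minus RNA differences per direction (signal at least 5 in all groups). Gm20594, Lars2, Pola1, Trp53's RNA and the genes given over 15 libraries and in culture were singled out after their values were seen, as were members shown with a sequence. Shares are of footprint reads on all listed genes of a table, unless said to be of shared genes. Values of some genes are not reported here, and the counts and medians of their lists include them. The labels do not say whether replicates are separate mice.

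Promoters were RefSeq's, build GRCm38.p6, matched by identifier for 7702 of 9455 shared symbols. The promoters of a single chromosome were left out of all counts. Patterns searched on both strands were the E2F letters above, the CHR element with letters TTTGAA, the box of letters CCAAT, the GC box with letters GGGCGG, the E-box with letters CACGTG, the ETS site with letters CCGGAAGT, the CRE with letters TGACGTCA, RE1, the octamer with letters ATTTGCAT and the TATA box with letters TATAAA. None contains another. The run of at least 7 pyrimidines was searched on the gene's strand from 10 bases before to 12 after the start.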

Additional observations from a re-analysis of the deposited data

How the results depend on the processing

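The counts were most open to the pseudocount and the scaling. With a pseudocount of 0.1, 1529 genes were higher in hippocampus and 1382 in ESC, and with libraries scaled to their totals 598 were higher in ESC. The other alternatives stayed within 1.5 times of the main counts: signals as deposited, the trimmed mean of M values, a mean signal of at least 1, all 15 hippocampal libraries and the RNA tables. Leaving out each control library in turn gave 773 to 802 genes higher in hippocampus and 931 to 963 in ESC. None of the 22 lists with a median of at least 1 in size changed sign under any alternative run. Of the other lists 6 did: oxidative phosphorylation, microglia, choroid plexus, fibroblast, growth factor signalling and adhesion genes. No called gene of the lists and pairs changed sign. No paired analysis was possible because ESC has a single library with no replicate number to match the 3 control libraries. Low genes are limited by the pseudocount and not by depth: ESC held 99 reads for Slc17a7, with a 95% Poisson interval of 80.5 to 121. ESC and tissue also differ in culture, lysate and table, which cannot be told apart from cell type.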

Other observations

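The ratio of observed to expected CpG in the RefSeq promoter was under 0.4 in 2.87% of the 767 genes higher in ESC that had a promoter and in 5.40% of the 6347 genes not called. The difference was not tested. Of the 758 symbols higher in hippocampus 588 had a promoter, under 80%, so their share of 7.65% is void for a comparison. Over all 27025 genes with a promoter the share was 49.0%.

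Lars2, which encodes the mitochondrial leucyl-tRNA synthetase, took more footprint reads than any other gene in ESC, 1.805%, and 0.492, 1.27 and 1.19% in the control libraries. Its footprint difference was -1.30 ± 0.71 (SD, n = 3) and its RNA difference 6.55. The first control library lay apart from the other 2. No source used here says how reads that match near-identical sequence elsewhere were counted.

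The 100 most footprinted genes took 22.8 to 24.6% of footprints in the control libraries and 23.7% in ESC. A share of 50% of the footprints lay on 649, 741 and 704 genes in the control libraries and on 540 in ESC. Psap, the precursor of the saposins, and Apoe, the lipid carrier of astrocytes, were among the 10 genes with most footprints in hippocampus, at 0.545 to 0.738% and 0.485 to 0.518%. Their shares in ESC were 0.0622 and 0.103%. In ESC Lars2 was followed by the HSP90 gene Hsp90aa1 (1.19%), Npm1 (0.893%), the HSC70 gene Hspa8 (0.888%) and the HSP90 gene Hsp90ab1 (0.638%).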
